A study of Mus musculus with 786 samples.

Results

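The genes described here are 10 heat shock chaperone genes, Hspa1a, Hspa1b, Hspa8, Hsph1, Dnajb1, Hsp90aa1, Hsp90ab1, Hspd1, Hspe1 and Hspb1. They were chosen by name, with earlier results of these data known. All 10 are among the 21664 genes of the single-cell tables, and 9 of them, all but Hsph1, are among the 18855 genes of the bulk table. The study profiled bone marrow cells of C57BL6 mice aged 6 to 8 weeks, sorted by flow cytometry into single wells and lysed for Smart-seq RNA sequencing, together with 18 bulk libraries of 1000 sorted cells each. The single-cell plates held multipotent precursors 1 (MPP1, CD48- CD150+ CD135- CD34+) of bled mice on 1 plate, hematopoietic stem cells (HSC, the same markers but CD34-) of bled mice on 1 plate, MPP1 of normal mice on 2 plates and HSC of normal mice on 3 plates. HSC plate 3 carries a spike-in in its label, and its growth note names both normal and bled mice, so it entered no test unless stated. Each plate had 96 wells, and the labels give the number of cells seen in each well. Of the 460 wells labelled with 1 cell, 373 had at least 1000 genes at 1 FPKM or more (fragments per kilobase of transcript scaled to library size) and were used as cells. The other wells comprised 150 labelled with no cell and 62 with 2 or more.

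Chaperones bind unfolded proteins and use ATP to let them fold. HSP70 proteins take hold of short exposed stretches, J-domain proteins such as Dnajb1 deliver the client and start ATP hydrolysis, HSP110 proteins such as Hsph1 release the nucleotide, and HSP90 receives partly folded kinases and hormone receptors at a later step. In mitochondria, Hspd1 and its lid Hspe1 form a closed folding chamber. Heat shock factor 1 switches on the inducible members when unfolded proteins accumulate, by binding heat shock elements made of inverted GAA units, whereas Hspa8 and Hsp90ab1 are made in nearly every growing cell. Tissue dissociation and sorting are known to induce several of these genes.

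The windows from 250 bases before to 50 bases after the start site are in the RefSeq promoter table (GRCm38.p6) for 7 of the 10 genes, in 10 windows, since Hsph1, Dnajb1 and Hspd1 each have more than 1 start. The short element searched was GAANNTTC or TTCNNGAA, 8 letters that each read the same on both strands. The long one, of 13 letters, adds 1 more unit at the same spacing, so it is GAANNTTC followed by NNGAA or TTCNNGAA followed by NNTTC. These are each other's reverse complement and contain the short elements. A short element stood in 7 of the 10 windows, which belong to 6 genes, against 15.1% of 32851 promoter windows of the same length. A long element stood in 4 windows, which belong to Hsph1, Hspd1 and Hspe1, against 0.603% of all windows. The Hsph1 windows overlap and hold the same elements, as do 1 Hspd1 window and the Hspe1 window. Those of Hspa1a and Hspa1b differ at 4 of 300 bases. These counts are thus not of separate sequences. Neither Dnajb1 window held an element of either kind. Such a match describes letters and is not a binding site. Hspa1a and Hspa1b are the inducible HSP70 pair that was nearly undetected, and Hspe1 shares most of its window with 1 of the Hspd1 windows. Shown are 3 of the upstream stretches, those of these genes, on which the results turn. Each is the 250 bases before the start site, 5′ to 3′ on the gene's strand, with the GAA and TTC units of the elements in capitals.
Hspa1a, chr17:34972157-34972406, minus strand: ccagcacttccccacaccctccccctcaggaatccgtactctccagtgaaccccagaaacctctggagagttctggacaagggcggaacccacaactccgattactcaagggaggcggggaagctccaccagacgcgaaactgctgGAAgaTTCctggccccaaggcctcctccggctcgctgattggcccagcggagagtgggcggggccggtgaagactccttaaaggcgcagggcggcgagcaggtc
Hspa1b, chr17:34959239-34959488, minus strand: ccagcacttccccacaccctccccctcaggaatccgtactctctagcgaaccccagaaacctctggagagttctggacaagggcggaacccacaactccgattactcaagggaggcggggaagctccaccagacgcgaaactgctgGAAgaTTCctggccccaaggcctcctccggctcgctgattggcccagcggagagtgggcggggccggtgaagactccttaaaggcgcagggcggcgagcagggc
Hspe1, chr1:55087898-55088147, plus strand: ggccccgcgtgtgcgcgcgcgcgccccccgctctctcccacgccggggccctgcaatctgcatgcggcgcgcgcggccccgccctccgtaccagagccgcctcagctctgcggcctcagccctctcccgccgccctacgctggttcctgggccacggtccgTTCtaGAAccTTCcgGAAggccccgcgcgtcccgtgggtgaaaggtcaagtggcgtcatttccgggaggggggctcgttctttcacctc
The Hspa1a and Hspa1b stretches differed at 3 of 250 bases, and their coding sequences at 8 bases (99.6% identity), so reads of one could be counted for the other. In both, the single short element began at position -104. In Hspe1 the elements overlap in 1 run. The window from 250 before to 50 after its start shares 285 bases with a window of Hspd1, which is transcribed the other way. The other Hspd1 window shares 4 bases with it and holds no element.

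The 10 genes spanned a wide range of levels in these cells. Hsp90ab1 and Hspa8 were in nearly every cell at several times the level of the others, Hsp90aa1 was in most cells at about 100 FPKM, Hspe1, Hspd1 and Dnajb1 were in a part of the cells, and Hsph1 was in fewer. Hspa1a, Hspa1b and Hspb1 were close to absent. A cell held a median of 4 to 6 of the 10 genes at 1 FPKM or more, depending on the plate, and the genes together took a median of 0.474% to 0.731% of a cell's summed FPKM. FPKM divides by transcript length, which allows only a rough comparison of different genes. Ratios between genes differed between the cells and the bulk libraries, as given below. The number of reads behind a value is unknown, as the tables hold no counts. In all that follows, fewer cells that express a gene and less RNA per cell cannot be told apart in a plate mean or a bulk library.

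**Figure D1:**
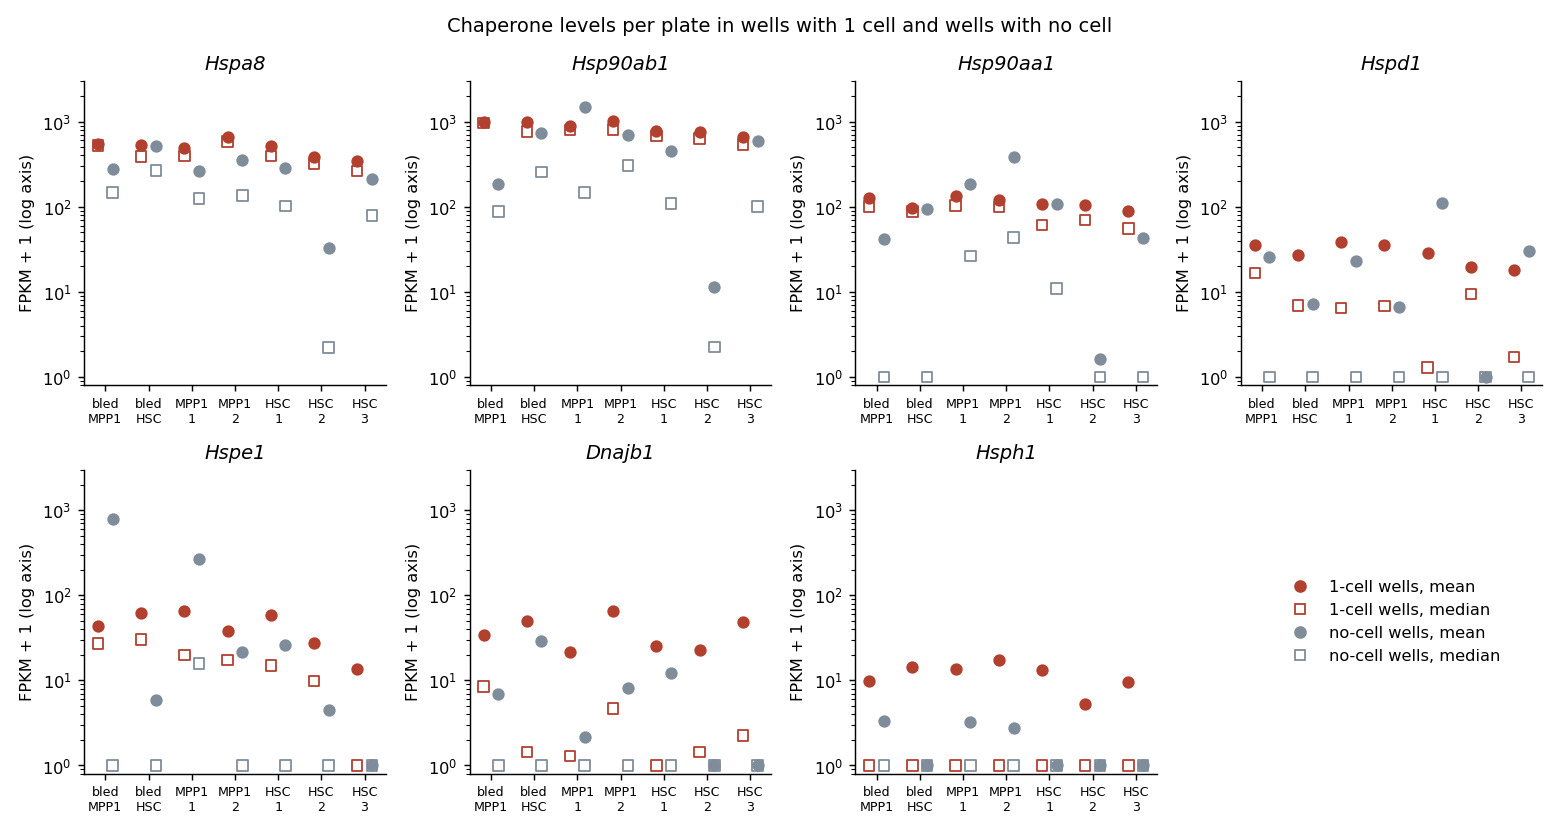
FPKM plus 1, on a log axis, of 7 chaperone genes on each plate, as the mean (filled circle) and median (open square) over 1-cell wells with at least 1000 genes (red) and over no-cell wells (grey). In 1-cell wells the mean of Hsp90ab1 lies between 661.5 and 1012.1 FPKM, the median of Hsph1 is 0 on every plate, and HSC plate 2 has the lowest no-cell means of Hsp90ab1 and Hspa8.

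Hspa8 encodes the constitutive cytosolic HSP70. Its mean was 544.36 FPKM for bled MPP1, 530.58 for bled HSC, 484.2 and 658.36 for MPP1 plates 1 and 2, and 518.15, 382.72 and 346.77 for HSC plates 1, 2 and 3. The highest plate was thus 1 of the MPP1 plates and the lowest was HSC plate 3, with the bled plates in between. At least 1 FPKM was found in 98.7% of the 373 cells, and also in 84.7% of the 150 no-cell wells. No-cell means ran between 31.8 FPKM on HSC plate 2 and 509.2 FPKM on the bled HSC plate. A part of the FPKM in cells is thus matched by wells in which no cell was seen. FPKM is scaled to library size, so equal values do not mean equal amounts of RNA, for this or any other gene. The median summed FPKM was 227960.5 in no-cell wells and 258234.5 in cells, with medians of 471 and 2394 genes at 1 FPKM. From cell to cell the level varied by a coefficient of variation of 0.657 to 0.894 within a plate.

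Hspa1a and Hspa1b encode the stress-inducible HSP70 and were almost silent. Hspa1a reached 1 FPKM in 5 of 373 cells (1.34%, exact 95% interval 0.437% to 3.10%) and Hspa1b in 6 (1.61%, 0.593% to 3.47%), against 2 of 150 no-cell wells for each (1.33%, 0.162% to 4.73%). These shares in cells are at the level of the wells without a cell. The 2 no-cell wells, the same for both genes, held 1054 and 963 genes at 1 FPKM, above the no-cell median of 471. Of the 150 no-cell wells, 20 had at least 1000 genes, the minimum used for a cell. Whether such wells held a cell that was not seen was not tested. Whether the values in cells are background was not tested. On HSC plates 1 and 2 and MPP1 plate 1 no cell reached 1 FPKM of Hspa1a, which allows a share of up to 6%, 5.66% and 5.88%, taken as 3 cells of each plate's total. The exact 95% upper bounds are 7.11%, 6.72% and 6.98%. Intervals and limits of this kind cover counting error only. Either gene was above 0 in 11 cells, and both were in 4 of them. The highest values in cells, 33.1 FPKM of Hspa1a and 17.3 FPKM of Hspa1b, were both on MPP1 plate 2. A no-cell well of MPP1 plate 1 exceeded them with 74.3 FPKM of Hspa1a and 73.9 FPKM of Hspa1b, in a well with 1054 genes at 1 FPKM. The bled HSC cell with 6.61 FPKM of Hspa1a also held the highest Hspa8 and Dnajb1 values of any cell, 2695.8 and 703.8 FPKM. On HSC plate 3 the other cell that stood out had 11.2 FPKM of Hspa1a beside 279.85 FPKM of Dnajb1, whereas a further cell of that plate with 22.5 FPKM of Hspa1a had 4.75 FPKM of Dnajb1. High Dnajb1 thus accompanied Hspa1a in some of these cells and not in others.

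Dnajb1, the J-domain partner of cytosolic HSP70, was present in part of the cells and uneven between them. Its mean was 33.0 FPKM for bled MPP1, 49.4 for bled HSC, 20.4 and 64.7 for MPP1, and 24.7, 21.8 and 47.3 for HSC plates 1, 2 and 3. Replicate plates of 1 population differed as widely as populations did. It reached 1 FPKM in 48.5% of cells (exact 95% interval 43.3% to 53.7%), against 11.3% of no-cell wells (6.74% to 17.5%). Plate shares were 60% for bled MPP1, 47.9% for bled HSC, 45.1% and 60.4% for MPP1, and 32%, 43.4% and 50.7% for HSC. The median over cells stayed between 0 and 7.45 FPKM, while the 3 highest cells held 37.0% to 61.3% of a plate's summed FPKM. A few cells thus carried a large part of each plate's mean.

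Hsph1, the HSP110 exchange factor that also prevents aggregation, was sparser. Plate means were 8.72 FPKM for bled MPP1, 13.5 for bled HSC, 12.7 and 16.6 for MPP1, and 12.3, 4.35 and 8.54 for HSC. It reached 1 FPKM in 22.3% of cells (exact 95% interval 18.1% to 26.8%), against 2.0% of no-cell wells (0.414% to 5.73%). The median cell had none on any of the 7 plates, and the 3 highest cells held 59.0% to 96.3% of the sum. On HSC plate 1, which marks the upper end of that range, a single cell had 427.8 FPKM.

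**Figure D2:**
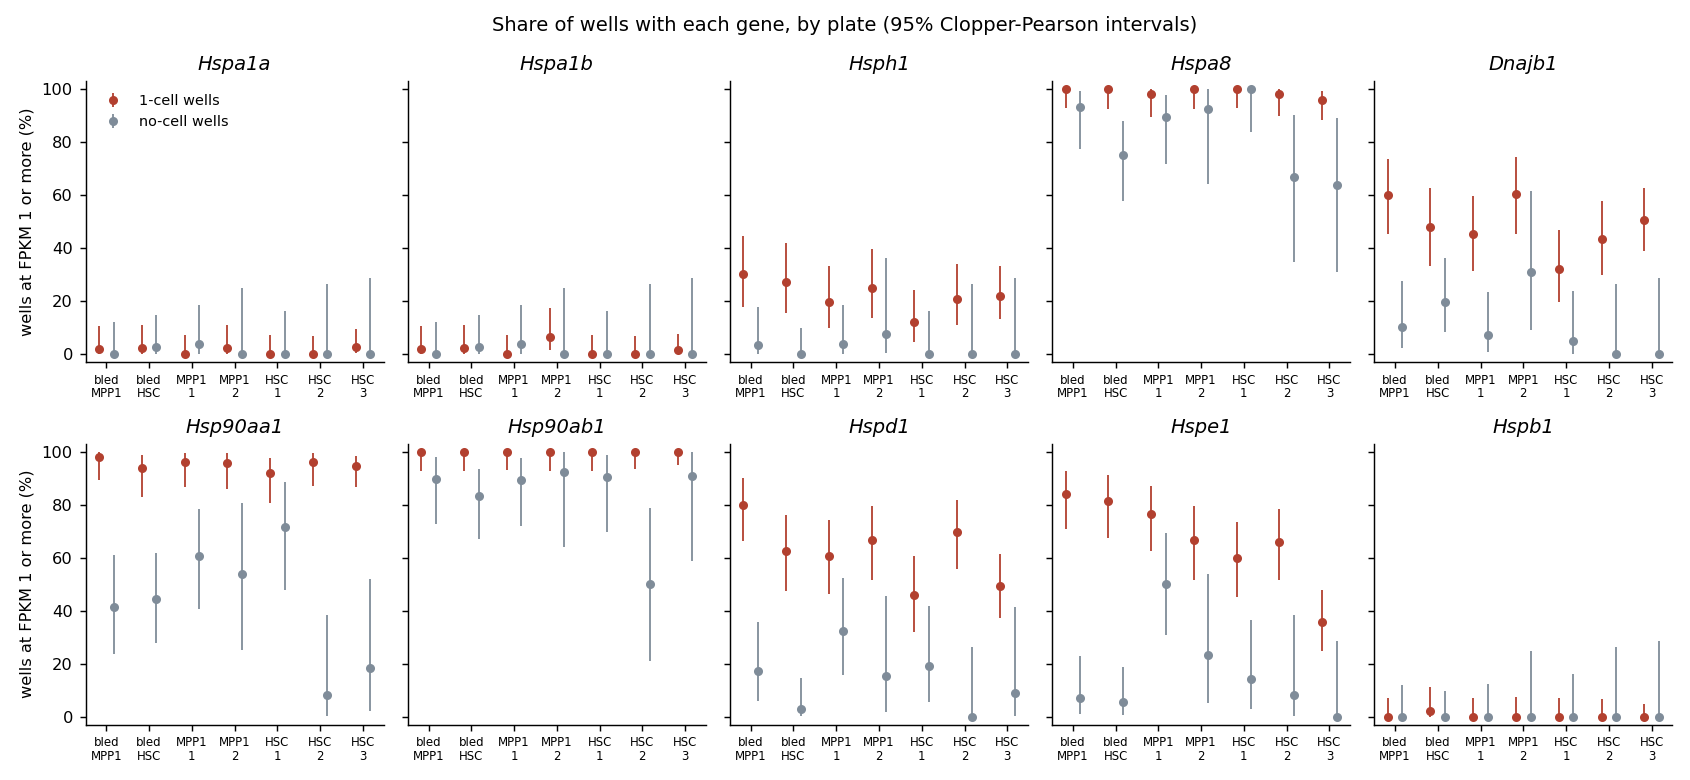
Percent of wells in which each chaperone gene reached 1 FPKM, by plate, for cells and for no-cell wells, with exact 95% binomial intervals as bars. Pooled over all plates, Dnajb1 (48.5% of cells against 11.3% of no-cell wells) and Hsph1 (22.3% against 2.0%) stand clear of the no-cell wells, whereas Hspa1a (1.34% against 1.33%) does not. On single plates some intervals overlap those of the no-cell wells, such as those of Dnajb1 and Hsph1 on HSC plate 1 and MPP1 plate 2.

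Of the 2 cytosolic HSP90 genes, the constitutive Hsp90ab1 was the higher. Its mean was 979.5 FPKM for bled MPP1, 991.5 for bled HSC, 883.2 and 1012.1 for MPP1, and 764.7, 754.4 and 661.5 for HSC. The lowest 3 means were those of HSC plates 1, 2 and 3. It was detected in all 373 cells and in 85.3% of no-cell wells. No-cell means ran between 10.3 FPKM on HSC plate 2 and 1502.6 FPKM on MPP1 plate 1, where 1 no-cell well reached 30137.8 FPKM. On that plate the no-cell mean was above the mean of the cells. From cell to cell its coefficient of variation was 0.583 to 0.824 within a plate, a range that overlapped that of Hspa8.

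Hsp90aa1, the more inducible HSP90, averaged 125.3 FPKM for bled MPP1, 96.6 for bled HSC, 133.2 and 118.1 for MPP1, and 107.0, 104.7 and 87.1 for HSC. It was detected in 95.2% of cells and 46.7% of no-cell wells. The ratio of the plate means of Hsp90ab1 to Hsp90aa1 lay between 6.63 and 10.3, and Hsp90ab1 was the higher of the pair in 352 of 373 cells. In the bulk libraries the same ratio was 93.6 to 853, so the range of the plates and that of the bulk libraries did not overlap. The coding sequences of the pair are 76.4% identical. The 2 tables were made by different RNA protocols and normalized separately, and what each of these contributed was not tested.

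Hspd1 (HSP60) and Hspe1 (HSP10) encode the mitochondrial chamber and its lid. Hspd1 averaged 34.3 FPKM for bled MPP1, 25.9 for bled HSC, 37.9 and 34.5 for MPP1, and 27.3, 18.7 and 16.9 for HSC. Hspe1 averaged 42.2 FPKM for bled MPP1, 60.5 for bled HSC, 64.0 and 36.9 for MPP1, and 58.2, 26.2 and 12.8 for HSC. HSC plate 3 was the lowest for both. Hspd1 was detected in 61.4% of cells (exact 95% interval 56.2% to 66.4%) against 14.7% of no-cell wells, and Hspe1 in 65.1% against 16.7%. The ratio of Hspe1 to Hspd1 means ran between 0.757 on HSC plate 3 and 2.33 on the bled HSC plate, so the pair was not in a fixed proportion. Single no-cell wells were extreme here too: 1 on the bled MPP1 plate had 22655 FPKM of Hspe1 and lifted that plate's no-cell mean to 781.6 FPKM. GENCODE M21 names 5 processed pseudogenes of Hspd1 and 6 of Hspe1. One of these, Hspd1-ps3 on chromosome 11, differs from Hspd1 at 18 of 1722 aligned bases and has a run of 431 identical bases, so values of both genes are uncertain where the authors' counting could split reads.

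Hspb1 (HSP27), the ATP-independent small chaperone, reached 1 FPKM in 1 of 373 cells (0.268%, exact 95% interval 0.00679% to 1.48%), a bled HSC with 1.32 FPKM, and in none of 150 no-cell wells. Its RefSeq window holds the short element at 2 places.

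Wells with 1 cell were compared with no-cell wells of the same plates to ask which chaperone signals came with a cell. Dnajb1 rose in 1-cell wells, and Hsp90ab1, Hspa8, Hspd1, Hsp90aa1 and Hspe1 did not pass the test on plate means. Hsph1 is given by its values, since it passed the filter on low values only through the 1-cell wells and so had to be higher there. Dnajb1 averaged 37.3 ± 16.8 FPKM in 1-cell wells and 7.63 ± 9.86 FPKM in no-cell wells (SD, n = 7 plates each), a log2 difference of 2.94 (SE 0.76, limma adjusted p = 0.00338). It was higher in cells on 7 of 7 plates. Hsph1 averaged 11.0 ± 4.04 FPKM in 1-cell wells and 0.916 ± 1.16 FPKM in no-cell wells (SD, n = 7 plates each), a log2 difference of 2.79 (SE 0.51) that is no support by itself. In the fit with no filter on low genes the same difference had a limma adjusted p = 0.00261. Of the 10 genes, 7 passed the filter, and of the 6 others than Hsph1 among them 1 was called higher, while 71.3% of 9391 genes tested were called higher and 0.0426% lower. At an unadjusted p under 0.05, again, 1 of these 6 passed, beside 74.8% of all genes. Of the other 5, Hsp90ab1 averaged 864 ± 138 FPKM in 1-cell wells and 595 ± 479.9 FPKM in no-cell wells, and Hspa8 495 ± 105 FPKM in 1-cell wells and 276 ± 144 FPKM in no-cell wells. The plate averages of the last 3 were lower in cells: Hsp90aa1 averaged 110.3 ± 16.2 FPKM in 1-cell wells and 122 ± 131 FPKM in no-cell wells, Hspd1 27.9 ± 8.12 FPKM in 1-cell wells and 28.4 ± 37.9 FPKM in no-cell wells, and Hspe1 43.0 ± 19.2 FPKM in 1-cell wells and 158 ± 291 FPKM in no-cell wells (SD, n = 7 plates each). On the log2 scale, the differences were 1.37 for Hsp90ab1 (SE 0.79, limma adjusted p = 0.121), 1.13 for Hspa8 (SE 0.71, limma adjusted p = 0.151), 1.02 for Hspd1 (SE 0.84, limma adjusted p = 0.271), 0.94 for Hsp90aa1 (SE 0.93, limma adjusted p = 0.358) and 0.79 for Hspe1 (SE 0.98, limma adjusted p = 0.462). Without HSC plate 2 they were 0.59 for Hsp90ab1, 0.73 for Hspa8, 0.47 for Hspd1, 0.09 for Hsp90aa1 and 0.49 for Hspe1, and with wells rescaled to equal totals 0.59 for Hsp90ab1, 0.03 for Hspa8, 1.61 for Hspd1, 0.04 for Hsp90aa1 and 0.46 for Hspe1, none of them called. Hspe1 was also 0.29 without HSC plate 3, 0.36 without the bled HSC plate and 1.61 without the bled MPP1 plate, and Hspd1 was 1.80 against no-cell wells with under 1000 genes. When each well was put on the log2 scale before averaging, which weakens single extreme wells, all 5 passed, with log2 differences such as 3.33 for Hsp90aa1 (limma adjusted p = 6.51e-07) and 2.03 for Hspd1 (limma adjusted p = 2.12e-07). In that setting 8343 of the 9391 genes tested were called, 8340 of them higher, so passing there does not set these members apart.

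**Figure D3:**
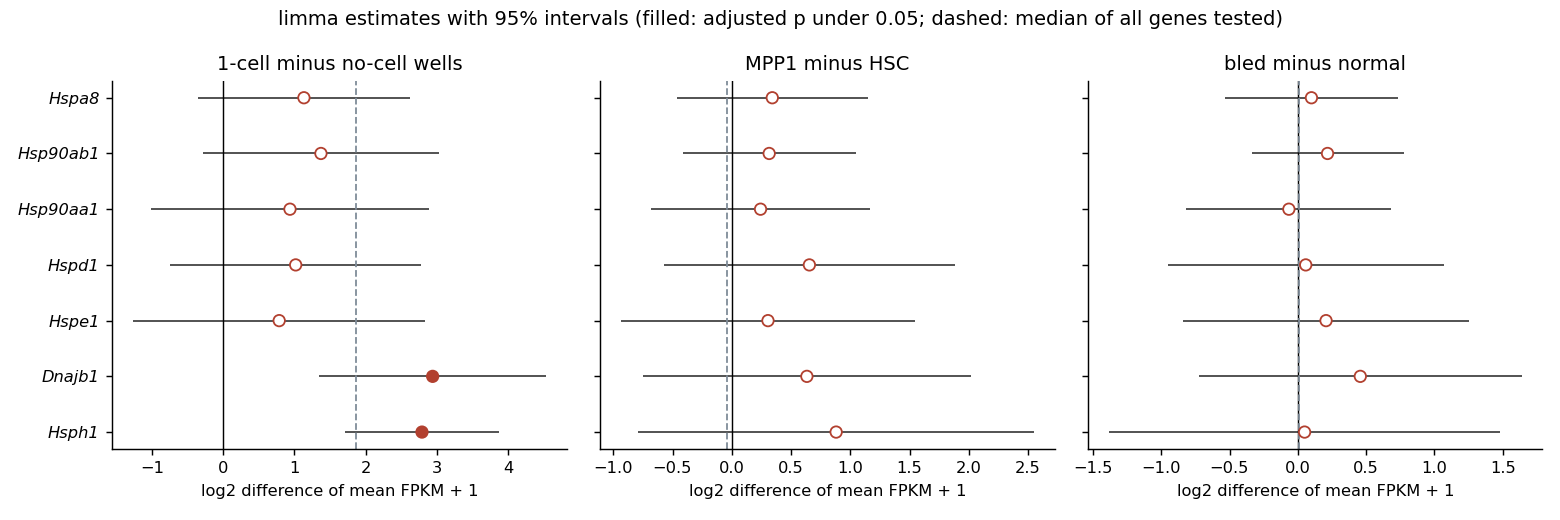
Log2 differences with 95% intervals of the 7 chaperone genes that passed the filter, for 1-cell against no-cell wells, MPP1 against HSC and bled against normal plates. Dnajb1 (2.94) lies clear of 0 in the first comparison, as does Hsph1 (2.79), which entered it only through the 1-cell wells, and every interval in the other comparisons spans 0. Filled points passed an adjusted p of 0.05, and the dashed line is the median of all genes tested.

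The comparison of MPP1 with HSC asks whether the chaperones differ between stem cells and their first CD34+ progeny in normal mice, with 2 plates each. All 7 members that passed the filter were higher on average in MPP1, by log2 differences of 0.24 to 0.88, and none passed the test. With wells rescaled to equal totals all 7 were still higher, by 0.17 for Hsp90aa1 to 0.82 for Dnajb1. Hsph1 averaged 14.7 ± 2.74 FPKM in MPP1 and 8.34 ± 5.64 FPKM in HSC (SD, n = 2 plates each), a log2 difference of 0.88 (SE 0.77, limma adjusted p = 0.858). Hspd1 averaged 36.2 ± 2.37 FPKM in MPP1 and 23.0 ± 6.08 FPKM in HSC, a log2 difference of 0.65 with a 95% interval of -0.58 to 1.89. Hsp90ab1 averaged 948 ± 91.2 FPKM in MPP1 and 760 ± 7.28 FPKM in HSC, a log2 difference of 0.32 with an interval of -0.41 to 1.04. The other log2 differences were 0.63 for Dnajb1, 0.34 for Hspa8, 0.31 for Hspe1 and 0.24 for Hsp90aa1. Limma called 0 of the 7, and none had an unadjusted p under 0.05. Of the 9833 genes tested, 0.0102% were called, which is the single gene Snora30, a small nucleolar RNA gene, named here after its value was seen. At an unadjusted p under 0.05 the share was 6.78%. For Hsph1, Hsp90aa1, Hsp90ab1 and Hspd1 both MPP1 plates were above both HSC plates, as were 15.8% of all genes, and no member had both MPP1 plates below both HSC plates, as 19.9% of all genes did. The median difference was 0.34 over the members and -0.04 over all genes. Single plates moved some values: Hsph1 was 0.22 without HSC plate 2 and 1.54 without HSC plate 1, and Hspd1 was 0.39 without HSC plate 2. Hspa8 was 0.12 without HSC plate 2 or MPP1 plate 2, and 0.56 without either of the other 2 plates. Hspe1 was -0.25 without HSC plate 2 and -0.08 without MPP1 plate 1, and Dnajb1 was -0.18 without MPP1 plate 2. Hsp90ab1 was -0.31 when 1-cell wells under 1000 genes were kept. The no-cell wells moved the same way as the cells: between the same plates their log2 differences were 4.35 for Hsp90aa1, 3.82 for Hsp90ab1, 2.82 for Hspe1, 1.67 for Hspa8, 1.59 for Hsph1, 0.27 for Dnajb1 and 0.22 for Hspd1, with HSC plate 2 the lowest or tied for the lowest of the 4 plates. Their part in the cells' difference was not tested. The summed level of 6 megakaryocyte markers, all in the tables and none at 0 on every plate, was 255.83 and 194.99 FPKM in MPP1, against 79.558 and 77.143 FPKM in HSC. Pf4 carried that sum, with 229.62 and 138.18 FPKM in MPP1, against 12.296 and 38.528 FPKM in HSC, while Gp9 and Vwf were lower on both MPP1 plates. The summed level of 7 stem and precursor sort markers was 237.16 and 350.43 FPKM in MPP1, against 591.61 and 470.7 FPKM in HSC. Within it Cd34, on which the sort differed, had 66.5 and 86.8 FPKM in MPP1, against 33.1 and 37.1 FPKM in HSC, and Ly6a had 72.94 and 57.122 FPKM in MPP1, against 422.22 and 314.34 FPKM in HSC. The part of these in the chaperone values was not tested.

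The shares of cells gave no firmer call. Dnajb1 was detected in 52.8% ± 10.8 of MPP1 and 37.7% ± 8.06 of HSC (SD, n = 2 plates each; exact two-sided permutation p = 0.333, the smallest that 2 plates against 2 allow). Hspe1 had 71.6% ± 6.93 in MPP1 and 63.0% ± 4.27 in HSC with the same exact permutation p. For the 8 others the exact permutation p was 0.667 or 1.

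Bleeding, which the study used as a challenge to blood formation, was compared over 1 plate per population against 2 normal plates each. No chaperone gene was called. Dnajb1 averaged 41.2 ± 11.6 FPKM on bled plates (SD, n = 2) and 32.9 ± 21.3 FPKM on normal plates (SD, n = 4), a log2 difference of 0.46 (SE 0.55, limma adjusted p = 0.946). Hsp90ab1 averaged 985 ± 8.46 FPKM on bled plates and 854 ± 121 FPKM on normal plates, a log2 difference of 0.22 with an interval of -0.34 to 0.77. Log2 differences of the rest were 0.21 for Hspe1, 0.10 for Hspa8, 0.06 for Hspd1, 0.05 for Hsph1 and -0.07 for Hsp90aa1. Limma called 0.0% of 10017 genes, and 5.85% had an unadjusted p under 0.05, none of them a member. The median difference was 0.10 over the 7 members and 0.01 over all genes. The bled plates are in another deposited table than the normal plates, so table and bleeding cannot be told apart. Rescaling wells to equal totals turned Hsph1 to -0.33, Hspd1 to -0.22 and Hspa8 to -0.05. Without the bled HSC plate all but Hsp90ab1 were negative, such as Dnajb1 at -0.14 and Hsph1 at -0.68, and without HSC plate 2 Hsph1 was -0.34 and Hspe1 -0.09.

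Within each population, and among the 7 members that passed the filter, the bled HSC plate was above both normal HSC plates for Dnajb1, Hsp90ab1, Hspa8, Hspe1 and Hsph1, and below both for Hsp90aa1, beside 31.9% and 35.0% of all genes. The bled MPP1 plate was below both normal MPP1 plates for Hspd1 and Hsph1 and above both for no member, beside 28.7% and 36.0% of all genes. Of 6 T and NK cell markers in the tables, Cd2 was at 0 on every plate. The bled HSC plate had 30.7 FPKM of Cd3d and 37.0 FPKM of Klrb1c, against at most 0.632 FPKM of Cd3d and 6.30 FPKM of Klrb1c on any other plate, and 4.10 FPKM of Cd3e and 3.16 FPKM of Cd3g, which were at 0 on the other plates. The sum of the list was 81.0 FPKM in bled HSC, against 37.2 and 39.3 FPKM in normal HSC, where Nkg7 made up nearly all of it. Nkg7 went the other way, with 6.11 FPKM in bled HSC, against 36.7 and 39.3 FPKM in normal HSC. In normal MPP1 the sum was 175.7 and 76.8 FPKM, so bled HSC did not have the highest. The part of these markers in the values of the bled HSC plate was not tested. The change with bleeding was also compared between the populations, and limma called 0.0% of genes for that difference, with 5.1% of all genes and no member at an unadjusted p under 0.05.

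Within plates, the levels of the chaperone genes were only loosely tied to each other from cell to cell. The exception was Hspa8 with Hsp90ab1, whose Spearman rho averaged 0.44 over the 7 plates, between 0.20 and 0.59 with 48 to 73 cells a plate. Held at equal numbers of detected genes, the average was 0.37, between 0.15 and 0.51. Hspd1 and Hspe1, which share an upstream region at 1 of the Hspd1 starts, averaged 0.19 (-0.01 to 0.35), and 0.10 at equal numbers of detected genes. Hsp90aa1 with Hsp90ab1 averaged 0.07 and ran between -0.28 and 0.43, so the HSP90 pair had no common direction over plates. Dnajb1 averaged -0.03 with Hspd1 and 0.00 with Hspe1. Among the 6 members found in at least 20% of cells on every plate, the median of the 15 pair averages was 0.17, and 13 were positive. Over 3283203 pairs of 2563 genes detected as often, the median was 0.066 and 85.6% were positive. Cells of a plate share depth and library quality, and Hspa8 itself had a rho of 0.10 to 0.65 with the number of genes detected. With a cell's summed FPKM, Hspa8 had a rho of 0.35 to 0.69 and Hsp90ab1 of 0.25 to 0.66. The pair was not held at equal summed FPKM. These correlations describe the cells and carry no test.

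**Figure D4:**
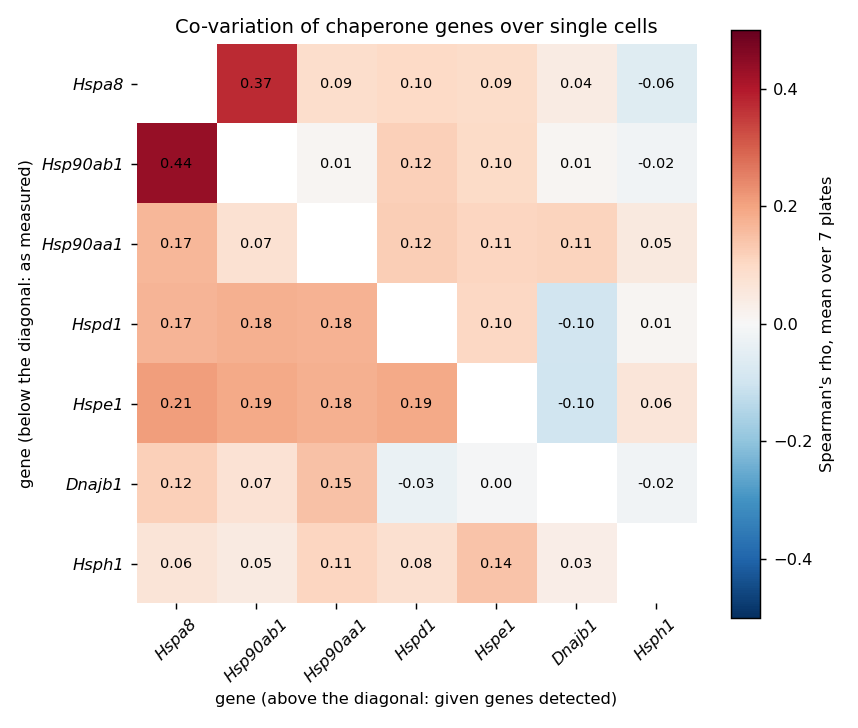
Spearman rho between pairs of chaperone genes over the cells of a plate, averaged over 7 plates, below the diagonal as measured and above it at equal numbers of detected genes. The pair of Hspa8 and Hsp90ab1 has the highest average (0.44), and Dnajb1 with Hspd1 lies at -0.03.

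The genes most like each member over cells were taken as the 3 genes outside the 10 with the highest average rho among the 2563, so that members were passed over. For Hsp90aa1 the first was Ptges3, which encodes the HSP90 co-chaperone p23, with an average rho of 0.39 (0.17 to 0.54 over plates, 0.36 at equal numbers of detected genes), followed by Ran and H2afz. For Hspa8 the first were Gm6548 and Ppia, at 0.46 and 0.45, with Hsp90ab1 at rank 5. For Hspd1 they were Prdx1 (0.29), Mcm6 and Nop56, for Hspe1 Slc25a5 (0.33), Mif and Set, and for Dnajb1 Rbm15 (0.24), Sumo2 and Bex4. For Hsp90ab1 the first was Gm13498 at 0.69 (0.59 to 0.78), ahead of Rpl4 and Rps9 at 0.44 each, with Hspa8 between these at rank 3. GENCODE M21 annotates Gm13498 as a processed pseudogene on chromosome 2, and it is 89.2% identical to the Hsp90ab1 transcript over 2165 aligned bases. Its plate means were 2.23 to 3.88 FPKM. The aligned 120 bases around their longest identical run, of 82 bases, show how alike the copies are, with the 4 differing bases in capitals and each sequence in the sense of the Hsp90ab1 transcript (GENCODE M21, GRCm38).
Hsp90ab1: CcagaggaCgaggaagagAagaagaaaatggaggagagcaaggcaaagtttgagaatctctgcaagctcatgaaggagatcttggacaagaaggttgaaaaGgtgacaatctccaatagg
Gm13498: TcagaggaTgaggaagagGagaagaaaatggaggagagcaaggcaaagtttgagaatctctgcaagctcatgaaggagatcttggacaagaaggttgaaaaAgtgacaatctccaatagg
A read that falls whole within such a run has the same letters in both copies, and how the authors' counting split such reads is not given in the sources used here, so the likeness of this pair is uncertain.

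Dnajb1 was set against the summed FPKM of 18 immediate early genes, which are rapidly induced by handling and by growth signals. Its rho with that sum was between 0.18 and 0.30 on 7 of 7 plates, with an average of 0.24, and between 0.15 and 0.26 at equal numbers of detected genes. It ranked 17th among 2549 genes, whose median was 0.054, and 6.28% of these genes were positive on all 7 plates. Other members had lower averages: 0.14 for Hspa8 and Hsp90ab1, 0.06 for Hsph1, 0.00 for Hsp90aa1, -0.01 for Hspd1 and -0.04 for Hspe1. Hspa8 was also positive on 7 of 7 plates, between 0.005 and 0.32. Dnajb1 thus had the highest average of the 7 members. These values describe 373 cells on 7 plates, and no test of their difference was made.

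The wider chaperone network was followed in 10 lists of other genes, and in neither MPP1 against HSC nor bled against normal was any of their genes called. The share of all genes tested that were higher in MPP1 than in HSC was 48.4%. Among HSP90 paralogs and co-chaperones, 18 of 18 genes were tested, with 6 higher and 12 lower in MPP1 and a median log2 difference of -0.11. Sugt1, an HSP90 adaptor, averaged 29.9 ± 5.73 FPKM in MPP1 and 58.6 ± 15.7 FPKM in HSC, a log2 difference of -0.93 (SE 0.53, limma adjusted p = 0.802). HSP70 exchange factors and adaptors had 7 of 11 higher, with St13, the HSP70-interacting protein Hip, at 69.2 ± 10.6 FPKM in MPP1 and 23.7 ± 3.67 FPKM in HSC, a log2 difference of 1.51 (SE 0.53, limma adjusted p = 0.644). J-domain co-chaperones had 13 of 21 higher, of which Dnajb9, a chaperone of the endoplasmic reticulum, averaged 70.4 ± 39.9 FPKM in MPP1 and 27.1 ± 1.04 FPKM in HSC, a log2 difference of 1.22 (SE 0.57, limma adjusted p = 0.735). TRiC and prefoldin subunits, which fold actin and tubulin, had 9 of 13 higher, and Cct8 averaged 101.4 ± 28.9 FPKM in MPP1 and 177 ± 9.93 FPKM in HSC, a log2 difference of -0.83 (SE 0.43, limma adjusted p = 0.780). Among regulators of heat shock factors 2 of 3 were higher. Hsf1, the factor itself, averaged 5.14 ± 1.77 FPKM in MPP1 and 13.3 ± 5.83 FPKM in HSC, a log2 difference of -1.19 (SE 0.81, limma adjusted p = 0.839). Of other HSP70 and HSP110 genes 3 of 8 were higher, of mitochondrial proteostasis genes 5 of 10, of other stress-inducible genes 6 of 8, and of other small heat shock genes the 1 tested. The immediate early genes had 16 of 18 higher, with a median log2 difference of 1.53. Of the 18, 8 had an unadjusted limma p under 0.05, beside 6.78% of all genes. In no-cell wells of the same plates 17 of 18 were higher, with a median of 3.27.

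In bled against normal plates, 50.5% of all genes tested were higher. Among the lists, 13 of 18 HSP90 paralogs and co-chaperones, 10 of 13 TRiC and prefoldin subunits, 12 of 22 J-domain genes, 8 of 11 exchange factors and 7 of 10 mitochondrial genes were higher, none called. The same held for 2 of 3 heat shock factor genes, 5 of 8 other HSP70 and HSP110 genes, 1 of 2 small heat shock genes, 7 of 10 stress-inducible and 14 of 18 immediate early genes. Clpp, the protease of the mitochondrial unfolded protein response, had 71.0 FPKM in bled MPP1 and 78.1 in bled HSC, against 38.0 and 38.1 FPKM in normal MPP1 and 39.0 and 19.8 in normal HSC, a log2 difference of 1.17 (SE 0.46, limma adjusted p = 0.807). In 1-cell against no-cell wells, 13 of 13 TRiC and prefoldin subunits, 10 of 10 exchange factors, 7 of 7 other HSP70 and HSP110 genes, 17 of 21 J-domain genes, 14 of 18 HSP90 paralogs and co-chaperones and 9 of 10 mitochondrial genes were called higher, beside 71.3% of all genes. The remaining lists had 6 of 9 stress-inducible, 6 of 17 immediate early, 2 of 3 heat shock factor and 1 of 2 small heat shock genes called higher. A gene could pass the filter on low values through the 1-cell wells alone, as Hsph1 did, which fixes its direction. Such genes were not set apart in the counts of these lists or of all genes, so the counts are no support by themselves.

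In the bulk libraries the members followed different populations. With 1 library of 1000 cells per population there is no replicate check, and the bulk HSC library is labelled CD34+, as MPP1 is. Hsp90ab1 ran from a low of 26.6 FPKM in mature megakaryocytes (Mature Meg) over a median of 1237 to a high of 2910 FPKM in megakaryocyte-erythroid progenitors (MEP). Granulocyte-monocyte precursors preGM followed with 2073 FPKM and erythroid CFU-E with 1938 FPKM. Mature Meg was the lowest, and this library stood apart with 1642 genes at 1 FPKM, against 2866 to 6080 in the other 17. The next was CLP Sca1 high, lymphoid progenitors, with 253.6 FPKM. Hspa8 had its lowest level, 87.1 FPKM, in CLP Sca1 high, a median of 260.9 FPKM and its highest, 544.5 FPKM, in MPP3, 2.09 times the median. With libraries rescaled to equal totals its lowest was HSC.

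Hspd1 was highest in populations of the erythroid line. PreCFU-E had 519 FPKM, MEP 248, ProEry 236 and CFU-E 170, against at most 164 FPKM in the other 14 populations (MPP3). With libraries rescaled to equal totals, PreCFU-E, MEP and ProEry stayed the highest, and CFU-E came after MPP3 and preGM. The median was 65.4 FPKM and the lowest 0.392 FPKM in Mature Meg. Hspe1 had 40.2 FPKM in MEP, 7.23 FPKM in CMP and at most 1.97 FPKM elsewhere, and it was listed at 0 in Mature Meg. Over the 18 libraries the pair had a Pearson r of 0.41 and a Spearman rho of 0.64, the highest rho of the 15 pairs of members. The ratio of Hspe1 to Hspd1 was at most 0.182 in 17 of the libraries and 2.11 in CLP Sca1 high, where both genes were low.

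Dnajb1 stood out in MPP4 with 243.6 FPKM and in preMegE with 183 FPKM. The next was MPP2 with 32.3 FPKM, the median was 15.2 and HSC had the lowest value, 0.805 FPKM. Hsp90aa1 was low throughout, between 0.0748 FPKM in Mature Meg and 11.2 FPKM in GMP-7. Hspa1a had at most 0.815 FPKM (CMP) and was at 0 in 11 libraries, Hspa1b had at most 1.97 FPKM (GMP-7) and was at 0 in 12, and Hspb1 was listed at 0 in all 18. Over the 18 libraries the HSP90 pair had a Pearson r of 0.77 and a Spearman rho of 0.63, and Hsp90ab1 with Hspd1 an r of 0.71 and a rho of 0.62, given as a description of populations that share a protocol. The genes with the highest r were C1qbp (0.92) for Hsp90ab1, Gtf3a (0.90) for Hspd1, Dut (0.81) for Hspa8, Ccdc71 (0.82) for Dnajb1, E430028B21Rik (0.88) for Hsp90aa1 and Grk5 (0.91) for Hspe1, out of 6120 genes.

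**Figure D5:**
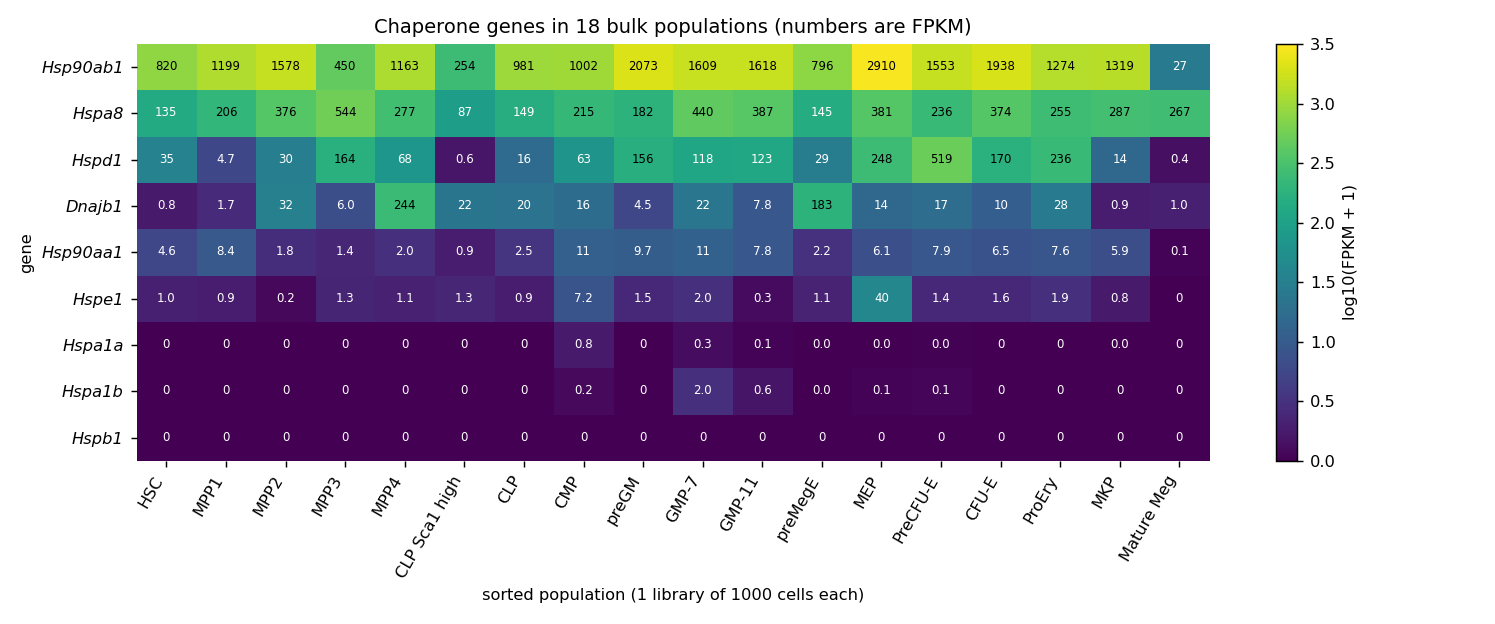
Heat map of 9 chaperone genes (down) in the 18 bulk libraries (across), with FPKM printed in each cell and log10(FPKM + 1) as colour, 1 library per population. Hspd1 is highest in PreCFU-E (519 FPKM), Dnajb1 in MPP4 (243.6 FPKM) and Hsp90ab1 in MEP (2910 FPKM), while Mature Meg, the library with the fewest genes detected, is lowest for Hsp90ab1, Hsp90aa1, Hspd1 and Hspe1.

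For MPP1 and HSC both kinds of data exist. In bulk, Hsp90ab1 had 1199 FPKM in MPP1 and 820 FPKM in HSC, and Hspa8 had 206 FPKM in MPP1 and 135 FPKM in HSC. Hsp90aa1 had 8.40 FPKM in MPP1 and 4.60 FPKM in HSC, and Dnajb1 had 1.68 FPKM in MPP1 and 0.805 FPKM in HSC. All 4 were higher in bulk MPP1. The averages of the single-cell plates were too, but for Dnajb1 and Hspa8 the MPP1 and HSC plates overlapped. Hspd1 had the other order, with 4.75 FPKM in bulk MPP1 and 34.9 FPKM in bulk HSC, and Hspe1 had 0.867 FPKM in bulk MPP1 and 1.02 FPKM in bulk HSC. Bulk Dnajb1 in HSC was far under the 24.7 and 21.8 FPKM of cells on HSC plates 1 and 2, and bulk Hspe1 under their 58.2 and 26.2 FPKM. Levels set across these tables, which were normalized separately, carry no test.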

How the data were processed

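Gene levels were analysed as deposited in FPKM: per the submitters' processing notes, the authors used TopHat 1.3.3 and Cufflinks 1.2.1 on mm9, with Bowtie2 2.2.1 also named for HSC plate 3. FPKM tables hold no counts, so depth and counting error are unknown, and the authors' filters are not given in the sources used here. The 4 deposited tables were taken as they stand, and since the columns of HSC plate 1 could be of either run of its wells, the 96 samples of the second run were not used apart.

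The plate was the replicate: FPKM was averaged over 1-cell wells with at least 1000 genes at 1 FPKM, and log2(mean + 1) was fitted with limma 3.58.1 (trend, empirical Bayes, R 4.3.3) over genes that reached 1 FPKM on average across a comparison's plates, with Benjamini-Hochberg adjustment over all genes tested and a threshold of 0.05. A difference on the log2(mean + 1) scale understates the change of low genes. The MPP1 and HSC fit used normal plates 1 and 2, the bled fit added the bled plates, and the fit of 1-cell against no-cell wells used all 7 plates with plate as a block. Nothing in the labels says whether plates came from separate mice or pools, so p-values measure the spread between plates only. Shares have exact Clopper-Pearson 95% intervals. Correlations over cells were computed within a plate in scipy 1.17.1. All 672 wells were compared in pairs and 0 held identical values. Scripts were tested on simulated data, with 100 genes changed by a log2 of 2 and 100 by 4. The MPP1 and HSC fit recovered 7 and 79 of them, and the bled fit 26 and 94. The fit of 1-cell against no-cell wells recovered 50 and 97, and that of the change with bleeding between populations 0 and 13. A gene that was not called may thus still differ. Genes of lists that are named are among the 3 with the smallest p between MPP1 and HSC in each list, and like genes are among the 3 with the highest correlation, of which 1 is not reported here. Members and lists were chosen with earlier results of these data known. Alternatives were another pseudocount, no filter, averaging of log2 values, rescaled wells, other cell minima, another detection level, no-cell wells under 1000 genes, each plate left out, HSC plate 3 added and a replicate block.

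Sequences and start sites are from RefSeq and GENCODE M21 (GRCm38), another build than the files, and were used for letters, neighbours and identity, never to place values.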

Additional observations from a re-analysis of the deposited data

Results flagged for a closer look

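The change of Hsph1 with bleeding differed in direction between the populations: the bled MPP1 plate was below both normal MPP1 plates and the bled HSC plate was above both normal HSC plates. The difference of the changes, MPP1 minus HSC, was -1.46 on the log2 scale (SE 1.26, limma unadjusted p = 0.286, adjusted p = 0.974), so the test of the difference did not pass. Limma called 0.0% of 10017 genes for this difference, and 5.1% had an unadjusted p under 0.05.

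Hspa1a reached 1 FPKM in 1.613% of the 62 wells with 2 or more cells, which entered no comparison. That is 1 well, against 2 of 150 no-cell wells, or 1.33%.

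The no-cell wells of HSC plate 2 stood apart from those of the other 6 plates, with means of 31.76 FPKM for Hspa8, 0.6215 FPKM for Hsp90aa1 and 10.32 FPKM for Hsp90ab1. These wells also had the fewest genes at 1 FPKM, a median of 147.5, and the lowest median summed FPKM, 16264.8. Chance marks about 1 group in 20 in this way, and 14 groups were checked.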

How the results depend on the processing

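Between MPP1 and HSC, limma called 1 gene. It called 0 with no filter on low genes, 38 when log2 values were averaged over wells (19 higher), 6 with wells rescaled to equal totals, 2 with all wells labelled 1 cell, and 0 to 0 with each plate left out in turn. With the replicate block it called 58 (16 higher). Same-numbered plates are tied in the titles by their number. Their deviations from the group means had a correlation of 0.0423 over 2 pairs. With 2 plates per group these pairs mirror each other, so the value cannot show whether same-numbered plates share a batch. No member was called under any of these settings. Hsp90ab1 reversed to -0.3137 with all wells labelled 1 cell. With each plate left out, Hspe1 ran between -0.2545 and 0.8653 and Dnajb1 between -0.1751 and 1.4423.

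Between bled and normal plates limma called 0 genes, 6 when log2 values were averaged, 2 with all wells labelled 1 cell, and 0 to 1 with each plate left out. Hsp90aa1 reversed to 0.2893 when log2 values were averaged and to 0.1024 with all wells. Hsp90ab1 reversed to -0.1552 with all wells. Rescaling reversed Hsph1 (-0.3298), Hspa8 (-0.0494) and Hspd1 (-0.2226). With each plate left out, Hsph1 ran between -0.6789 and 0.7781, Hspa8 between -0.0526 and 0.2522, Dnajb1 between -0.1433 and 1.0581, Hspd1 between -0.0737 and 0.1898 and Hspe1 between -0.2014 and 0.6147. The causes were not tested.

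For 1-cell against no-cell wells, Dnajb1 (1.88 to 4.03) was called higher under every setting. Hsph1 ran between 0.87 and 4.76, with a direction that the filter fixed except where none was used (limma adjusted p = 0.00261). Rescaling moved the median of all genes to 2.28. Of 140 shares of cells under other detection levels 131 lay within the interval of the first. Pseudogenes, unknown depth and single plates per bled group limit all values.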
